A study of Homo sapiens with 6 samples.

Results

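The genes described here are 55 genes of DNA replication, which encode the proteins that choose and license origins, open them, copy the DNA at the fork, supply nucleotides and rebuild chromatin behind it. They were chosen by gene name, with every probe annotated to them under a current or older symbol, among the 20037 genes with a probe on the arrays. All 55 had a probe, and 53 were measured above background and tested among 10642 genes. GINS1 and CLSPN were the exceptions, with no probe over background anywhere on the 6 arrays. PTTG1-/- cells are a derivative of HCT116, a colorectal carcinoma cell line, from which PTTG1 was removed by homologous recombination, and the parental HCT116 cells are PTTG1+/+. Both lines were a gift of another laboratory and grew in standard culture with no treatment named, and no source used here gives the number of clones. Illumina beadchips, where a brighter probe means more bound RNA, measured 3 samples of PTTG1-/- cells and 3 of PTTG1+/+ cells. Whether the 3 samples of a line were separate cultures is not stated, so the p-values rest on a spread among samples that may be technical only. Genotype and line coincide, so the loss of PTTG1 cannot be told apart from anything else in which the lines differ.

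Replication starts at origins, where the origin recognition complex, CDC6 and CDT1 load the MCM2 to MCM7 helicase as an inactive ring during G1 phase. CDC45 and the GINS complex turn this ring into the active helicase at the start of S phase. Polymerase alpha with its primase then lays down short primers, which polymerases epsilon and delta extend on the leading and lagging strands, held to the DNA by the PCNA ring that the RFC complex loads. Many of these genes are transcribed mainly in late G1 and S phase, and many are known targets of E2F transcription factors. In RNA from a whole culture, fewer cells in S phase and less RNA per cell cannot be told apart.

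The promoters of the genes are shown first because the words bound by E2F factors are a feature that the choice of genes did not use. The windows come from RefSeq, on GRCh38.p14, and run from 250 bases before the start of a gene to 50 bases after it. A window was found for 49 of the 55 genes, and MCM4, MCM5, GINS4, POLD3, RPA2 and RPA3 are without one here. The E2F words searched on both strands were TTCCCGC along with TTGGCGC, then its variant TTCGCGC and lastly the word TTGCCGC, and some of their matches overlap. Of the genes that were lower in PTTG1-/- cells, MCM10, CDC45, RRM2, DUT and ORC5 had no such word in their windows, and RFC5 had it only after the start. For the 6 others with a window, picked because they hold a word before the start, the 110 bases before the start are printed 5′ to 3′ on the strand of the gene, with every base of a match to one of these words, on either strand, in capitals.
POLA2 (chr11:65261852-65261961, + strand): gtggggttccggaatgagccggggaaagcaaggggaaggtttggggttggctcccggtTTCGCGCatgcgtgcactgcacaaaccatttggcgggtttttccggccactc
PRIM1 (chr12:56752324-56752433, - strand): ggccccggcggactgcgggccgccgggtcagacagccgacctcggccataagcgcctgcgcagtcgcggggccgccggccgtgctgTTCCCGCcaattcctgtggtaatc
CDT1 (chr16:88803679-88803788, + strand): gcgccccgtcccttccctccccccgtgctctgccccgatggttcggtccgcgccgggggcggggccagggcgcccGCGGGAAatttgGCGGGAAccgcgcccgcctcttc
MCM6 (chr2:135876444-135876553, - strand): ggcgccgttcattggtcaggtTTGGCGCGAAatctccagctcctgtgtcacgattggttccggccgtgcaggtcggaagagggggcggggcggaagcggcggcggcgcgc
CHAF1A (chr19:4402530-4402639, + strand): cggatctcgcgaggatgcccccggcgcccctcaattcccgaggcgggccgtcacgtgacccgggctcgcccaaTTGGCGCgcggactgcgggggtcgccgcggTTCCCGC
DTL (chr1:212035638-212035747, + strand): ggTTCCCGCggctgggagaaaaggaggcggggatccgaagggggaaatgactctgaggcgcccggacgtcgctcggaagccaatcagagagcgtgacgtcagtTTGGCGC
In these lines CDT1 carried a pair of matches close together at -35 to -29 and -23 to -17 from the start. MCM6 showed overlapping matches at -89 to -83 and -86 to -80. A like pair of MCM6 at -151 to -145 and -148 to -142 lies beyond the 110 bases printed. POLA2 had 1 match, at -52 to -46, and PRIM1 had 1, at -24 to -18.

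An E2F word was present in 32 of the 49 replication promoters (65.3%), against 21.0% of the 8612 promoters of genes tested and 13.1% of all 27305 windows. It was found in 7 of 12 promoters of the genes that fell (58.3%) and in 23 of 35 promoters of those that did not pass the test (65.7%). These shares are close for so few promoters, and no test compared them. CCAAT, the word bound by NF-Y, was present in 29 replication promoters (59.2%), against 37.4% of the genes tested and 35.7% of all windows. It stood in 8 of the 12 promoters of the genes that fell (66.7%) and in 19 of the 35 others (54.3%). The CHR words TTTGAA and TTCGAA, which are common in promoters of mitotic genes, were rare, at 3 of 49 promoters (6.12%), against 11.3% of the genes tested and 16.6% of all windows. A match describes the letters of these windows and does not show binding.

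Intensities were corrected for background, quantile normalized and put on a log2 scale, and a difference is PTTG1-/- minus PTTG1+/+ on that scale. In PTTG1-/- cells 14 of the 53 replication genes tested were lower than in PTTG1+/+ cells and 0 were higher (limma, Benjamini-Hochberg adjusted p under 0.05 over all 10642 genes). That is 26.4% lower, where the same test called 7.78% of all genes lower, 9.58% higher and so 17.4% in either direction. The genes that fell, in order of size, were POLA2, PRIM1, DUT, MCM10, RRM2, RFC5, DTL, MCM5, MCM6, CDT1, RPA3, CHAF1A, CDC45 and ORC5. All but POLA2 fell by less than 1.5-fold, with log2 differences of -0.48 to -0.26. The median log2 difference of the replication genes was -0.16, while that of all genes tested was 0.00, and it was also -0.16 without POLA2. Of the 53 genes 48 had a negative difference (90.6%), against 49.8% of all genes. For 29 of them every PTTG1-/- array lay below every PTTG1+/+ array, and for 0 the reverse held, where the shares over all genes were 16.7% and 19.5%. Set against its own mean over the 6 arrays, the median replication gene lay at -0.10, -0.12 and -0.07 in PTTG1-/- samples and at 0.07, 0.09 and 0.11 in PTTG1+/+ samples (log2), so the shift was small and present on each array. The number of genes that fell depended on single arrays. It was 6, 6 and 15 without PTTG1-/- replicate 1, 2 or 3, and 6, 5 and 7 without PTTG1+/+ replicate 1, 2 or 3. The share of all genes called lower in those fits is not given here, so these counts lack a background. The median difference of the replication genes stayed between -0.166 and -0.144.

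**Figure D1:**
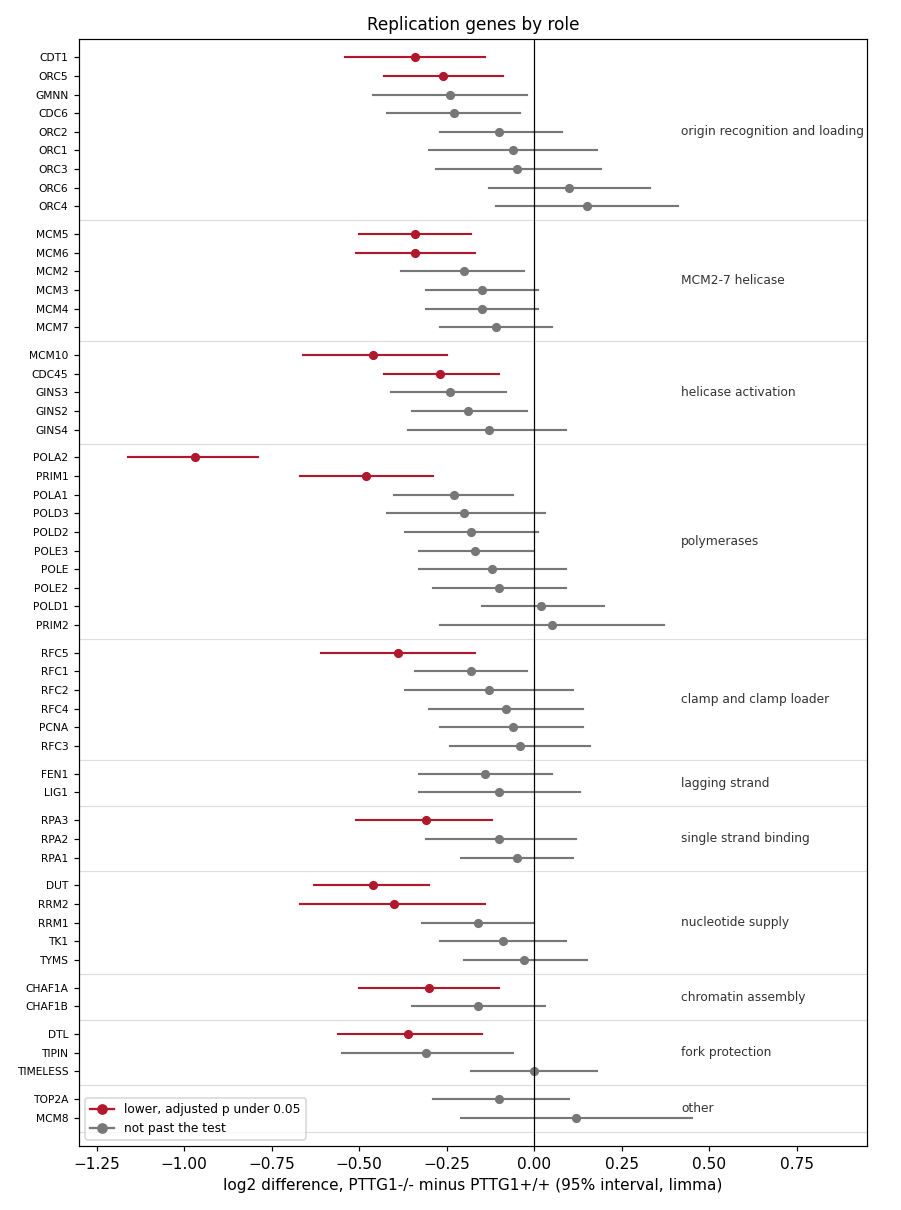
Log2 difference in intensity, PTTG1-/- minus PTTG1+/+, of each of the 53 replication genes tested (horizontal axis), grouped by role, with the 95% interval from limma (n = 3 arrays per line). The 14 genes in red fell, most points lie left of 0, and POLA2 lies apart from the rest at -0.97.

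Facts of the arrays as a whole were as follows. The summed signal ran from 14796418 to 16708425 on the PTTG1-/- arrays and from 14804249 to 15565151 on the PTTG1+/+ arrays, and between 35.7% and 37.3% of probes lay above background. A probe of PTTG1 was detected on 0 of 3 PTTG1-/- arrays and on 3 of 3 PTTG1+/+ arrays, a drop in PTTG1-/- cells of at least 49.3-fold (adjusted p = 2.31e-09 among all probes). The bound takes, for each PTTG1-/- array, whichever was higher, the probe itself or the dimmest probe called detected. Another PTTG1 probe stayed bright, with log2 intensities of 11.31, 11.19 and 10.88 in PTTG1-/- cells and 11.98, 12.02 and 12.09 in PTTG1+/+ cells, and where either probe lies relative to the deleted part was not looked at. Of 10 markers of colorectal epithelium 6 (EPCAM, CDH1, KRT8, KRT18, KRT19 and CDX2) were detected on all 6 arrays and 3 (CDH17, VIL1 and CDX1) on none, and their summed linear intensity was 15128 to 15969 on PTTG1-/- arrays and 15616 to 16141 on PTTG1+/+ arrays. Of 8 fibroblast markers only COL1A1 was detected and 7 were on no array (summed intensity 84 to 98 in PTTG1-/- cells and 88 to 109 in PTTG1+/+ cells). Of 8 blood markers 7 had a probe, CD14 and CD68 were detected on 3 or more arrays, and PTPRC, CD3E and LYZ on none, with sums of 342 to 375 in PTTG1-/- cells and 254 to 270 in PTTG1+/+ cells. PTTG1-/- replicate 3, the array with the highest summed signal, was the highest of its line for 9 of the 14 genes that fell and for 25 of all 53 (37.5% of all genes tested). The part of these differences in the results was not tested.

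Origin licensing covers 15 of the genes, of which 4 fell (26.7%, against 7.78% of all genes) and 11 did not pass the test. The median log2 difference was -0.15. Among the 9 genes that recognise origins or govern loading, CDT1 and ORC5 fell. CDT1, which brings the MCM ring to the origin, had log2 intensities of 9.55, 9.52 and 9.38 in PTTG1-/- cells and 9.69, 9.87 and 9.91 in PTTG1+/+ cells. The lines did not overlap, and CDT1 was 1.26-fold lower in PTTG1-/- cells (log2 difference -0.34, SE 0.09, adjusted p = 0.0309). ORC5, a subunit of the origin recognition complex, read 9.70, 9.71 and 9.73 in PTTG1-/- cells and 9.90, 10.05 and 9.97 in PTTG1+/+ cells. It fell 1.20-fold (log2 difference -0.26, SE 0.08, adjusted p = 0.0422), with PTTG1-/- arrays that differed little among themselves. CDC6, the loading partner of CDT1, was dim at 5.86, 6.05 and 6.07 in PTTG1-/- cells and 6.18, 6.21 and 6.28 in PTTG1+/+ cells. Its arrays were separated too, but it did not pass the test (log2 difference -0.23, SE 0.08, adjusted p = 0.0941). GMNN, geminin, the inhibitor of CDT1, read 8.69, 8.68 and 8.95 in PTTG1-/- cells and 8.91, 9.08 and 9.07 in PTTG1+/+ cells. The lines overlapped through PTTG1-/- replicate 3, and the difference of -0.24 did not pass (SE 0.10, adjusted p = 0.12), though it did without that array (adjusted p = 0.0285). The other subunits of the origin recognition complex did not pass the test. ORC4, the dimmest, read 5.63, 5.37 and 5.58 in PTTG1-/- cells and 5.46, 5.16 and 5.52 in PTTG1+/+ cells, with a difference of 0.15 (95% interval -0.11 to 0.41). The differences of ORC1, ORC2 and ORC3 were -0.06, -0.10 and -0.05, and that of ORC6 was 0.10, all with overlapping lines.

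In the MCM2 to MCM7 helicase the differences were small and all negative. At the probe used for each of its 6 genes, every PTTG1-/- array lay below every PTTG1+/+ array, as for 16.7% of all genes tested. The log2 differences were -0.34 to -0.11 with a median of -0.18. MCM5 and MCM6 passed the test (33.3%, against 7.78% of all genes), and the other genes of the ring did not. MCM5 read 10.06, 10.12 and 10.06 in PTTG1-/- cells and 10.43, 10.38 and 10.46 in PTTG1+/+ cells. It was 1.27-fold lower in PTTG1-/- cells (log2 difference -0.34, SE 0.07, adjusted p = 0.0131), and the 3 arrays of each line lay close together. MCM6 read 11.11, 11.15 and 11.06 in PTTG1-/- cells and 11.48, 11.48 and 11.37 in PTTG1+/+ cells. Its fall was of the same size (log2 difference -0.34, SE 0.08, adjusted p = 0.0156). MCM2 was at 10.11, 10.09 and 10.09 in PTTG1-/- cells and at 10.34, 10.20 and 10.36 in PTTG1+/+ cells, which gave -0.20 (SE 0.08, adjusted p = 0.106). MCM3 was at 12.10, 12.14 and 12.18 in PTTG1-/- cells and at 12.30, 12.28 and 12.29 in PTTG1+/+ cells, and MCM4 at 10.23, 10.27 and 10.26 in PTTG1-/- cells and at 10.39, 10.39 and 10.43 in PTTG1+/+ cells. These were narrow separations, at -0.15 each (adjusted p = 0.178 for both), and MCM7 was the smallest at -0.11 (95% interval -0.27 to 0.05). A dimmer probe of MCM7 past the filter overlapped between the lines (-0.06, SE 0.16, adjusted p = 0.842 among all probes). The dimmer probes of MCM3 and MCM4 were separated, at -0.19 and -0.24, and did not pass.

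Helicase activation, with 5 genes tested, had a median log2 difference of -0.24, and 2 of the 5 fell (40.0%, against 7.78% of all genes). MCM10, which helps to set the activated helicase moving, read 8.82, 8.59 and 8.85 in PTTG1-/- cells and 9.17, 9.20 and 9.26 in PTTG1+/+ cells. It was 1.37-fold lower in PTTG1-/- cells (log2 difference -0.46, SE 0.09, adjusted p = 0.00924). CDC45, a subunit of the active helicase, read 9.92, 9.93 and 10.01 in PTTG1-/- cells and 10.24, 10.16 and 10.26 in PTTG1+/+ cells, with no overlap. It fell 1.20-fold (log2 difference -0.27, SE 0.07, adjusted p = 0.0375). Of its GINS partners, GINS3 read 8.63, 8.53 and 8.53 in PTTG1-/- cells and 8.77, 8.80 and 8.85 in PTTG1+/+ cells. GINS3 lay just outside the threshold (log2 difference -0.24, SE 0.07, adjusted p = 0.0528). GINS2, at 10.84, 10.81 and 10.71 in PTTG1-/- cells and 10.97, 11.01 and 10.94 in PTTG1+/+ cells, was also separated but did not pass (-0.19, adjusted p = 0.121). GINS4 overlapped between the lines, at 7.36, 7.28 and 7.48 in PTTG1-/- cells and 7.33, 7.57 and 7.62 in PTTG1+/+ cells.

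Among the 10 polymerase subunits 2 fell (20.0%, against 7.78% of all genes). Both belong to polymerase alpha and primase, the 4-subunit enzyme that starts every strand. POLA2, its accessory B subunit, had the most negative difference of all 53 genes. It read 7.34, 7.43 and 7.31 in PTTG1-/- cells and 8.24, 8.35 and 8.41 in PTTG1+/+ cells. The gap between the lines was many times the spread within them, and POLA2 was 1.96-fold lower in PTTG1-/- cells (log2 difference -0.97, SE 0.08, 95% interval -1.16 to -0.79, adjusted p = 0.000114). PRIM1, the catalytic primase subunit, read 9.36, 9.32 and 9.56 in PTTG1-/- cells and 9.92, 9.89 and 9.86 in PTTG1+/+ cells. It was 1.39-fold lower (log2 difference -0.48, SE 0.09, adjusted p = 0.00609). No test compared the subunits with each other. POLA1, the catalytic polymerase subunit, read 8.98, 8.86 and 8.85 in PTTG1-/- cells and 9.08, 9.13 and 9.16 in PTTG1+/+ cells, separated by -0.23 but not past the test (SE 0.08, adjusted p = 0.0679). PRIM2, the large primase subunit, overlapped widely, with a difference of 0.05 (95% interval -0.27 to 0.37).

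Of the 6 subunits of polymerases delta and epsilon 0 passed the test, where 17.4% of all genes did in either direction. With so few genes, 0 is not far from that share. Their log2 differences ran from -0.20 to 0.02 with a median of -0.14, and 5 of the 6 were negative. POLE3, a histone-fold subunit of polymerase epsilon, read 11.22, 11.31 and 11.26 in PTTG1-/- cells and 11.44, 11.43 and 11.40 in PTTG1+/+ cells (log2 difference -0.17, SE 0.07, adjusted p = 0.149). POLD2, an accessory subunit of polymerase delta, read 10.61, 10.46 and 10.41 in PTTG1-/- cells and 10.63, 10.64 and 10.75 in PTTG1+/+ cells (log2 difference -0.18, SE 0.08, adjusted p = 0.177). Both were separated between the lines by little, as was POLD3 (-0.20, adjusted p = 0.21). The catalytic subunits POLD1 and POLE and the accessory POLE2 overlapped, with differences of 0.02 (95% interval -0.15 to 0.20), -0.12 (-0.33 to 0.09) and -0.10 (-0.29 to 0.09).

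**Figure D2:**
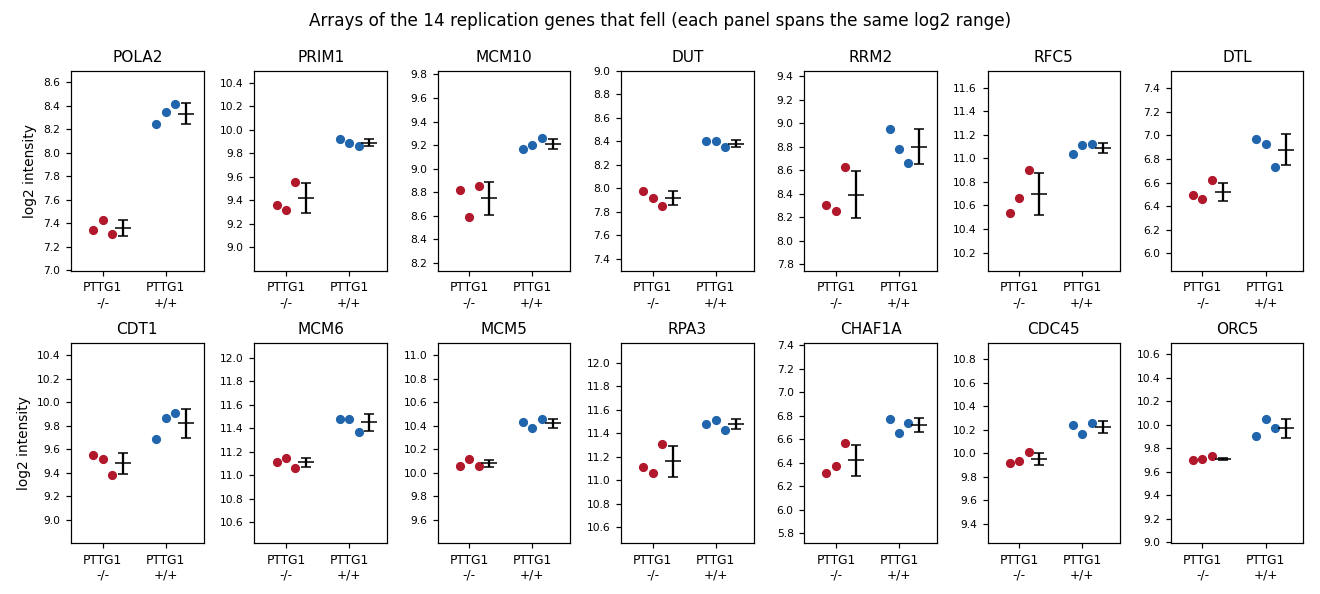
Log2 intensity (vertical axis) on each array, 3 PTTG1-/- arrays in red left of 3 PTTG1+/+ arrays in blue, for the 14 replication genes that fell, with mean and SD beside the points. Every panel spans the same range on the log2 scale, so that the gap of POLA2 (7.36 ± 0.07 in PTTG1-/- cells and 8.33 ± 0.09 in PTTG1+/+ cells) can be set against the smaller ones, and in no panel do the lines overlap.

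The sliding clamp and its loader gave 1 gene that fell among 6 (16.7%, against 7.78% of all genes), with a median log2 difference of -0.10. RFC5, a small subunit of the clamp loader, read 10.54, 10.66 and 10.90 in PTTG1-/- cells and 11.04, 11.11 and 11.12 in PTTG1+/+ cells. It was 1.31-fold lower in PTTG1-/- cells (log2 difference -0.39, SE 0.10, adjusted p = 0.0264), although PTTG1-/- replicate 3 lay nearer to the other line than to replicate 1 of its own. RFC1, the large subunit, read 8.66, 8.61 and 8.70 in PTTG1-/- cells and 8.81, 8.84 and 8.86 in PTTG1+/+ cells, a separation that did not pass (-0.18, SE 0.07, adjusted p = 0.123). RFC2 and RFC4 overlapped between the lines, and RFC2 passed the test only without PTTG1-/- replicate 3 (adjusted p = 0.0462). RFC2 was at 7.09, 7.14 and 7.47 in PTTG1-/- cells and at 7.34, 7.34 and 7.41 in PTTG1+/+ cells, and RFC4 at 10.46, 10.47 and 10.73 in PTTG1-/- cells and at 10.53, 10.65 and 10.71 in PTTG1+/+ cells. RFC3 and the clamp PCNA had differences of -0.04 (95% interval -0.24 to 0.16) and -0.06 (-0.27 to 0.14). Dimmer probes of RFC3 gave -0.18 and -0.34 (SE 0.12 and 0.14, adjusted p = 0.354 and 0.143 among all probes).

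On the lagging strand neither gene passed the test, where 17.4% of all genes did in either direction. FEN1, the nuclease that trims primers, read 11.18, 11.24 and 11.12 in PTTG1-/- cells and 11.36, 11.40 and 11.20 in PTTG1+/+ cells (-0.14, 95% interval -0.33 to 0.05). LIG1, the ligase that seals the fragments, read 8.80, 8.91 and 8.83 in PTTG1-/- cells and 8.90, 8.79 and 9.14 in PTTG1+/+ cells (-0.10, 95% interval -0.33 to 0.13). Both overlapped between the lines. Of the 3 subunits of RPA, which coats single-stranded DNA, the smallest, RPA3, fell (33.3%, against 7.78% of all genes). RPA3 read 11.11, 11.06 and 11.31 in PTTG1-/- cells and 11.48, 11.51 and 11.43 in PTTG1+/+ cells and was 1.24-fold lower in PTTG1-/- cells (log2 difference -0.31, SE 0.09, adjusted p = 0.037). Its partners overlapped at the probes used. RPA2 read 10.34, 10.40 and 10.11 in PTTG1-/- cells and 10.31, 10.36 and 10.46 in PTTG1+/+ cells. RPA1 read 11.26, 11.31 and 11.29 in PTTG1-/- cells and 11.33, 11.31 and 11.38 in PTTG1+/+ cells. A dimmer probe of RPA1 was separated the other way, higher in PTTG1-/- cells by 0.13, and did not pass (adjusted p = 0.327 among all probes). Another dimmer probe of RPA1 overlapped, at 0.07.

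In nucleotide supply all 5 enzymes had negative differences, with a median of -0.16 on the log2 scale. DUT and RRM2 fell (40.0%, against 7.78% of all genes), and RRM1, TYMS and TK1 did not pass the test. DUT, which breaks down dUTP and so keeps uracil out of DNA, read 7.98, 7.92 and 7.85 in PTTG1-/- cells and 8.40, 8.40 and 8.35 in PTTG1+/+ cells. The arrays of each line were close together, and DUT was 1.38-fold lower in PTTG1-/- cells (log2 difference -0.46, SE 0.07, adjusted p = 0.00357). RRM2, the small subunit of ribonucleotide reductase, read 8.30, 8.25 and 8.63 in PTTG1-/- cells and 8.95, 8.78 and 8.66 in PTTG1+/+ cells. It was 1.32-fold lower (log2 difference -0.40, SE 0.12, adjusted p = 0.0455), but PTTG1-/- replicate 3 and PTTG1+/+ replicate 3 nearly met. RRM1, the large subunit, read 11.72, 11.73 and 11.82 in PTTG1-/- cells and 11.91, 11.92 and 11.91 in PTTG1+/+ cells, a narrow separation that did not pass (-0.16, SE 0.07, adjusted p = 0.17). TYMS, thymidylate synthase, read 11.48, 11.50 and 11.57 in PTTG1-/- cells and 11.62, 11.50 and 11.50 in PTTG1+/+ cells (-0.03, 95% interval -0.20 to 0.15). TK1, thymidine kinase, read 11.61, 11.72 and 11.54 in PTTG1-/- cells and 11.67, 11.70 and 11.78 in PTTG1+/+ cells (-0.09, 95% interval -0.27 to 0.09). Both overlapped between the lines.

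Behind the fork, CHAF1A, the large subunit of the chromatin assembly factor that deposits histones on new DNA, read 6.31, 6.37 and 6.57 in PTTG1-/- cells and 6.77, 6.65 and 6.74 in PTTG1+/+ cells. It was 1.23-fold lower in PTTG1-/- cells, at the edge of the threshold (log2 difference -0.30, SE 0.09, adjusted p = 0.0459). CHAF1B, its partner subunit, read 8.82, 8.71 and 8.70 in PTTG1-/- cells and 8.85, 9.03 and 8.83 in PTTG1+/+ cells, barely separated (-0.16, SE 0.08, adjusted p = 0.233). DTL, which directs the ubiquitin ligase that destroys CDT1 during S phase, read 6.49, 6.46 and 6.62 in PTTG1-/- cells and 6.97, 6.93 and 6.73 in PTTG1+/+ cells. DTL fell 1.28-fold (log2 difference -0.36, SE 0.09, adjusted p = 0.0265), so that CDT1 RNA and the RNA of this factor were both lower. TIPIN and TIMELESS, the pair that steadies the fork, did not pass the test. TIPIN read 7.50, 7.84 and 7.85 in PTTG1-/- cells and 8.10, 8.08 and 7.93 in PTTG1+/+ cells (-0.31, SE 0.11, adjusted p = 0.0867), and TIMELESS read 10.23, 10.13 and 10.04 in PTTG1-/- cells and 10.10, 10.16 and 10.14 in PTTG1+/+ cells (95% interval -0.18 to 0.18). Of the remaining genes, MCM8, a helicase of DNA repair, read 10.26, 10.13 and 9.74 in PTTG1-/- cells and 9.77, 9.84 and 10.15 in PTTG1+/+ cells, and TOP2A, the topoisomerase that untangles sister DNA, read 10.70, 10.57 and 10.74 in PTTG1-/- cells and 10.74, 10.88 and 10.68 in PTTG1+/+ cells. Both overlapped, with differences of 0.12 and -0.10.

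The genes were read by 82 probes, of which 71 passed the filter on dim probes. With every probe tested by itself, 12 were lower and 0 higher in PTTG1-/- cells, where 5.85% of all 17357 probes were lower and 6.87% higher. Of 16 genes with more than 1 probe past the filter, 13 had probes of 1 sign, and ORC6, RFC2 and RPA1 had probes of both signs. Among the genes that fell, only PRIM1, DUT and MCM10 had more than 1 probe past the filter. POLA2 was read by 1 probe, so its difference could not be set beside that of another probe. Both probes of PRIM1 were lower, by -0.48 and -0.45 (SE 0.09 and 0.10, adjusted p = 0.00962 and 0.0217 among all probes). For DUT the probe annotated to NM_001025248 was lower by -0.46 and that annotated to NM_001025249, another transcript, by -0.57 (SE 0.08 and 0.09, adjusted p = 0.00622 and 0.00378). The second probe of MCM10 gave -0.28 (SE 0.09, adjusted p = 0.0846), less than the -0.46 of the brighter one. For PCNA, too, the call turned on the probe. Its brighter probe gave -0.06, but a dim probe of the same transcript record read 5.81, 5.92 and 5.95 in PTTG1-/- cells and 6.23, 6.15 and 6.26 in PTTG1+/+ cells, which was 1.24-fold lower (SE 0.08, adjusted p = 0.0373).

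**Figure D3:**
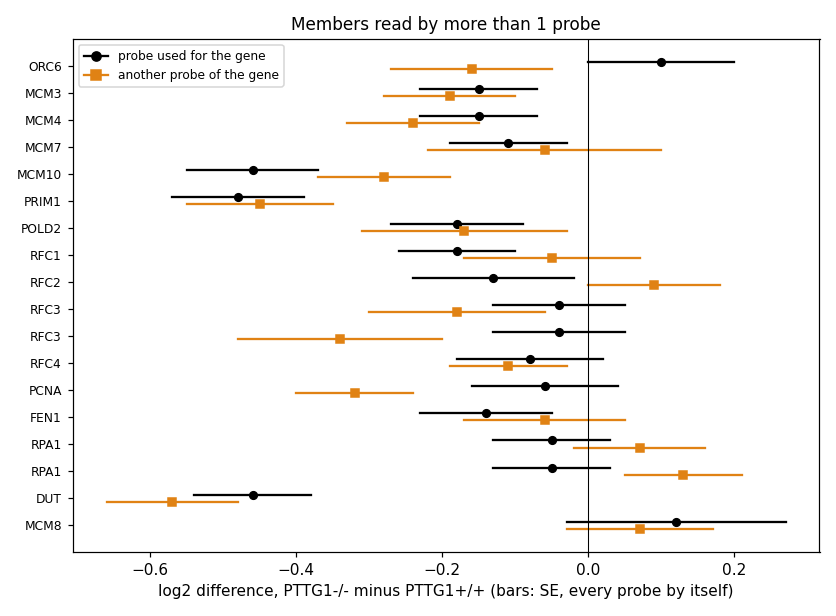
Log2 difference, PTTG1-/- minus PTTG1+/+ (horizontal axis), of each probe past the filter for the 16 replication genes read by more than 1 such probe, with bars of 1 SE and every probe tested by itself. Circles are the probe used for the gene and squares its other probes, and RFC3 and RPA1, with 3 probes each, have a line for each of the other two. The probes of PRIM1 and of DUT lie together well below 0, those of PCNA lie apart, and those of ORC6, RFC2 and RPA1 straddle 0.

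The genes that fell lie on 10 chromosomes. Of 84 neighbouring genes 72 did not pass the test, close to the share over all genes, where 8795 of 10642 did not pass. The 3 nearest tested genes on each side of each gene, in the order of the RefSeq gene table, made up the 84. Of these 9 were lower (10.7%, against 7.78% of all genes) and 3 were higher (9.58% of all genes were), and their median log2 difference was -0.04. Around POLA2 on chromosome 11, the neighbours MRPL49, SYVN1, CAPN1, CDC42EP2, DPF2 and FRMD8 had differences of -0.13, 0.01, 0.15, -0.18, -0.02 and 0.26, and 0 of the 6 passed the test.

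Other genes of the same processes, 47 tested of 54 listed, included both negative and positive differences. Of these 8 were lower (17.0%, against 7.78% of all genes) and 1 was higher, with a median log2 difference of -0.12. Differences were negative for 10 of 11 initiation genes and 8 of 8 chromatin genes, against 49.8% of all genes. They were negative for 9 of 15 fork genes (60.0%) and 5 of 13 nucleotide genes (38.5%, median 0.04), nearer to that share. No test compared the processes. Among the initiation genes, MCMBP, which binds MCM rings, CDC7, the kinase that fires origins, and TOPBP1, a loading factor of CDC45, were lower by -0.59, -0.44 and -0.39 (adjusted p = 0.00586, 0.0156 and 0.0413). At the fork RNASEH2B, a subunit of the ribonuclease that removes ribonucleotides from DNA, was lower by -0.65 (adjusted p = 0.0156). It was the only call among the 15 fork genes (6.67%, near the 7.78% of all genes). The histone chaperones NASP and ASF1A and the histone acetyltransferase HAT1 were lower by -0.66, -0.43 and -0.46 (adjusted p = 0.000725, 0.00789 and 0.014). NASP read 7.24, 7.26 and 7.39 in PTTG1-/- cells and 7.99, 7.92 and 7.97 in PTTG1+/+ cells. In nucleotide supply 1 of the 13 genes was lower (7.69%) and 1 was higher, near the 7.78% and 9.58% of all genes. CTPS1, a CTP synthase, was lower by -0.47 (adjusted p = 0.00451), and RRM2B, the ribonucleotide reductase subunit that p53 induces, was higher by 0.57 (adjusted p = 0.0478). RRM2B read 7.13, 7.31 and 7.77 in PTTG1-/- cells and 7.04, 6.87 and 6.58 in PTTG1+/+ cells, the reverse of its homologue RRM2, whose arrays were lower in PTTG1-/- cells.

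Mitotic genes, which peak after replication, had the same median log2 difference as the replication genes. Of 34 tested, 7 were lower (20.6%, against 7.78% of all genes) and 0 higher, with a median of -0.16. CCNB1, HMMR, PLK1 and KIF23 were lower by -0.46, -0.53, -0.45 and -0.35 (adjusted p = 0.00429, 0.00614, 0.0128 and 0.0285). Among 23 regulators of the cell cycle tested, 3 were lower (13.0%) and 1 was higher, and these 4 in 23 are the same share as the 17.4% of all genes called in either direction. E2F2, an activating E2F factor, was lower by -0.51 (adjusted p = 0.0113), and LIN54 and LIN9, subunits of the complex that binds CHR elements, by -0.61 and -0.45 (adjusted p = 0.00201 and 0.00644). CDKN1A, the cyclin-dependent kinase inhibitor p21, was higher. Its log2 intensities were 13.33, 13.33 and 13.36 in PTTG1-/- cells and 12.49, 12.53 and 12.54 in PTTG1+/+ cells (1.76-fold, adjusted p = 0.000145). No test was made of any relation between CDKN1A and the replication genes.

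**Figure D4:**
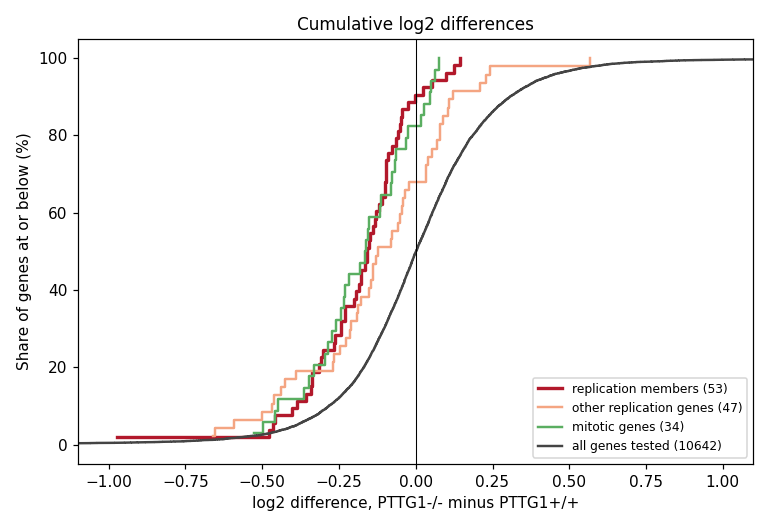
Share of genes in percent (vertical axis) whose log2 difference, PTTG1-/- minus PTTG1+/+, lies at or below the value on the horizontal axis, for the 53 replication genes, 47 other replication genes, 34 mitotic genes and all 10642 genes tested. The curves of the replication and mitotic genes run together, left of the curve of all genes, and the other replication genes lie between them above 0.

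Of the 14 genes that fell, POLA2, PRIM1 and DUT passed the test under all 20 alternatives tried, and MCM5 and MCM10 also without any 1 array. The other 9 lost their call without at least 1 array. Of the 6 fits with 1 array left out, MCM6 passed in 4 and DTL in 2. ORC5, CDT1, CDC45, RFC5, RPA3, RRM2 and CHAF1A passed in 1 each. CHAF1A passed under the fewest alternatives, 5 of 20, and RPA3 and RRM2 under 9. All 14 kept a negative difference under each alternative. As their lines did not overlap, leaving out an array or changing the variance model could hardly change the sign. An exact permutation test of a single gene cannot go below a two-sided p of 0.1 with 3 arrays against 3.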

How the data were processed

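RNA from 3 PTTG1-/- and 3 PTTG1+/+ HCT116 samples was measured on 6 one-colour Illumina arrays. The authors deposited the unnormalized intensity of each probe, and a fraction headed as a detection p that rises with the intensity, so 1 minus it was taken as the detection p. Processed log2 values were deposited too (median 6.07 for each of the arrays) and served as an alternative. The authors' methods cite the Illumina protocol and Partek. How they normalized, and with which scanner software, is not given in the sources used here. In R 4.3.3, limma 3.58.1 corrected background and normalized by quantiles (neqc, offset 16). Probes (17357 of 47310) with a detection p under 0.05 on at least 3 of 6 arrays were kept, which could remove dim genes. They were named through the platform annotation (gene identifier for 30068 of 30115 probes), and each gene took its probe with the highest mean, which ignores probes of other transcripts. Differences were fitted with lmFit and eBayes without covariates and adjusted by Benjamini-Hochberg. The script was tested on simulated data. The number of arrays limits the precision.

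The replication genes, the other gene lists and the rule for named genes were chosen with earlier results of these data known. Values per array are given for genes past the test and up to 3 more per role with the smallest p. Outside the replication genes, PTTG1 and up to 4 genes past the test from each list are named (6 for regulators). Neighbours of the genes that fell and their values were added after the data were seen, as were single arrays of NASP and RRM2B. Same-numbered arrays did not deviate together (correlations of -0.0737, -0.00404 and -0.115 for replicates 1, 2 and 3), so the numbers were not used as pairs. Alternatives covered background, normalization, the authors' values, the filter, probes per gene, variance models, a block for the replicate number, the methods' t-test, arrays left out and thresholds.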

Additional observations from a re-analysis of the deposited data

How the results depend on the processing

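The 14 replication genes that fell became 3 with no normalization between arrays, 5 with median scaling, 9 with every probe tested by itself, 9 by the methods' t-test after adjustment, 7 with the replicate number as a block and 4 at an adjusted p under 0.01. Leaving out 1 array gave 5 to 15. The 7.78% of all genes called lower belongs to the fit that gave 14. With every probe tested by itself, 5.85% of all probes were lower. For the other settings the share over all genes is not given here. Their counts therefore do not show whether the excess over all genes changed. A stricter threshold can only lower the count. Why the count changed in the other settings was not tested. The fits with 1 array left out, all equally small, gave counts both below and above 14. The median log2 difference of the licensing genes moved to -0.177 with the stricter filter (detection p under 0.01) and to -0.197 with the mean of the probes of a gene, and that of the polymerases to -0.137 with normexp and an offset of 50 and to between -0.204 and -0.142 with 1 array left out. The median of all 53 genes lay between -0.166 and -0.144 with 1 array left out. Of the 14 genes, 3 (POLA2, PRIM1 and DUT) kept their call under all 20 alternatives. In addition, 10 genes outside the call passed under at least 1, among them GINS3. All 14 kept their sign under each of the 20, which arrays that do not overlap between the lines made likely beforehand. Same-numbered arrays were not shown to be paired, so the block is a hint only. The filter on dim probes left GINS1 and CLSPN untested.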
